A study of Mus musculus with 6 samples.

Results

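The 10 genes described here belong to the ALK1 and BMP pathway: the receptors Acvrl1, Eng and Bmpr2, the signal transducers Smad1 and Smad5, the inhibitory Smad6 and Smad7, and the target genes Id1, Id2 and Id3. They were taken by symbol from the 19124 gene symbols of the deposited table, with the entry of the longest deposited length for each gene. That length is close to the genomic span of these genes. All 10 passed the filter on low counts. Polyadenylated RNA was sequenced from CD31-sorted retinal cells of 6 C57BL/6 mouse pups at postnatal day 7. The 3 KO pups were Pdgf{beta}CreERT2pos Rnf20p/p and the 3 Ctrl pups Pdgf{beta}CreERT2neg Rnf20p/p, so that both groups carried the Rnf20p/p allele and only the KO pups the tamoxifen-inducible recombinase. Both groups received 75 µg of 4-hydroxytamoxifen daily from day 1 to day 4. Each library came from a different pup. The labels do not say in which cells the recombinase acted; the Pdgfb-CreERT2 line used in retinal work acts mainly in endothelium. CD31 also marks platelets and some leukocytes.

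ALK1, the product of Acvrl1, is a type I receptor of endothelium that binds the circulating ligands BMP9 and BMP10 together with the type II receptor BMPR2 and the co-receptor endoglin, the product of Eng. The active receptor phosphorylates SMAD1 and SMAD5, which enter the nucleus with SMAD4 and switch on Id1, Id2, Id3, Smad6 and Smad7. SMAD6 and SMAD7 feed back to damp the receptors, and ID proteins bind E proteins and keep them off DNA. In the mouse retina this pathway restrains sprouting, and its loss leads to excess tip cells and direct connections between arteries and veins, as in hereditary haemorrhagic telangiectasia.

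The promoters of Eng, Id2 and Id3 are shown because Eng was a receptor gene that rose and Id2 and Id3 are direct SMAD targets. The sequences come from RefSeq (GRCm38.p6, the assembly of mm10), run 5′ to 3′ on the gene's own strand from 250 bases before the start site to 50 after it, and have GGCGCC, the GC-rich motif of SMAD1 and SMAD5, and CAGAC or its reverse complement GTCTG, the general SMAD motif, in capitals. They lie at chr2:32646345-32646644 on the plus strand (Eng), chr12:25096043-25096342 on the minus strand (Id2) and chr4:136143572-136143871 on the plus strand (Id3).
Eng: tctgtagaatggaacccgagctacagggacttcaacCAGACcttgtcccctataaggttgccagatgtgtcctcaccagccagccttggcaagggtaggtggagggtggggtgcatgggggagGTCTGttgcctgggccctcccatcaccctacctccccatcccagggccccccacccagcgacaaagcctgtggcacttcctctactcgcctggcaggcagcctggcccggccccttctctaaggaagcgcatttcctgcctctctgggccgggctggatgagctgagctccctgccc
Id2: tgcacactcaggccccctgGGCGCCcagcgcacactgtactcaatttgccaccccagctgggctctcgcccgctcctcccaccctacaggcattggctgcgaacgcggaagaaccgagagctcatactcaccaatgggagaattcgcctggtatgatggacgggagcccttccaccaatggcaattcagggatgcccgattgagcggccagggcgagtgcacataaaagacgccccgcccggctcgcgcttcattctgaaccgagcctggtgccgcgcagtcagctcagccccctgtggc
Id3: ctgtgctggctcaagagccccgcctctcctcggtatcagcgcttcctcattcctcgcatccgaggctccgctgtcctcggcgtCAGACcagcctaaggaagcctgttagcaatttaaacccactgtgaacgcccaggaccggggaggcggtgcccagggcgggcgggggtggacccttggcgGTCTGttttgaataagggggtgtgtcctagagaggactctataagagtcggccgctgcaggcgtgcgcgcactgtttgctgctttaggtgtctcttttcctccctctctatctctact
The table held promoters for 7 of the 10 genes, 9 in all with 3 for Smad5, and none for Acvrl1, Smad7 and Id1. Eng held CAGAC 214 bases and GTCTG 127 bases before its start, and Id3 held the pair 167 and 68 bases before its own, while Id2 held GGCGCC 231 bases before its start. GGCGCC was found in 4 of the 9 promoters (Bmpr2, Id2 and 2 overlapping ones of Smad5), against 11.9% of all 32851 promoters of that length on either strand. The 2 overlapping Smad5 promoters share 1 site, which is thus counted more than once. CAGAC was found in 3 of the 9 (Eng, Id3 and 1 of Smad5), against 49.6%, and the E box CANNTG in 5 of the 9, against 72.3%. Those 2 Smad5 promoters share 1 E box as well. Where motifs were capitalised they did not overlap.

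The libraries held between 14581701 (Ctrl 3) and 30692948 (KO 3) counts. The targeted gene Rnf20 was at 39.1, 31.0 and 31.7 CPM (counts over TMM-adjusted library size) in KO 1, 2 and 3, against 47.9, 57.1 and 56.8 CPM in Ctrl 1, 2 and 3, and did not pass the test (edgeR's quasi-likelihood Benjamini-Hochberg adjusted p = 0.101). Every KO library lay below every Ctrl library, a pattern of 18.9% of tested genes. Of 14 alternatives Rnf20 passed in 2. By the same test it was at −0.71 without KO 1 (adjusted p = 0.0373), where 14.5% of tested genes fell. With libraries scaled to equal endothelial markers it was at −2.02 (adjusted p = 0.00145), where 54.8% fell. The 15 endothelial markers were detected in every library and summed to 5177 to 6558 CPM in KO, against 1793 to 2547 CPM in Ctrl. Of them 11 rose and 0 fell, with log2 fold changes of 2.06 for Sox18, 1.66 for Icam2, 1.65 for Ramp2 and 1.63 for Erg. RNA of other retinal cells was abundant: the 14 photoreceptor markers summed to 4135 to 19646 CPM in KO and 16836 to 30127 CPM in Ctrl, with 0 up and 2 down (Gngt1, Pde6b). Of 14 inner neuron markers 12 were tested, with 0 up and 3 down (Snap25, Otx2, Trpm1, sums over the 14 of 903 to 1691 CPM in KO and 2657 to 3094 CPM in Ctrl), with Gad1, Calb1 and Lhx1 at 0 in at least 1 library. Of 7 ganglion cell markers Sncg and Rbpms rose (315 to 344 CPM in KO, 75.5 to 115 CPM in Ctrl, Thy1 at 0 in 1 library or more). Of the 7, 5 had positive estimates, while Pou4f1 (−1.28) and Slc17a6 (−0.44) had negative ones. Rbpms made up most of these sums, with a mean of 263 CPM in KO and 77.2 CPM in Ctrl. Of 12 mural markers Des rose (422 to 843 CPM in KO, 192 to 895 CPM in Ctrl), and of 12 astrocyte and Müller glia markers Glul, S100b and Pax2 rose, while 5 had negative estimates (Slc1a3, Rlbp1, Sox9, Dkk3 and Aqp4, the last at 0 in 1 library or more). These markers summed to 2287 to 17083 CPM in KO and 2483 to 3256 CPM in Ctrl, and without Apoe, which reached 14882 CPM in KO 2, to 1842 to 2201 CPM in KO and 1448 to 1873 CPM in Ctrl. The 12 microglial markers had 0 past the threshold (267 to 14029 CPM in KO, highest in KO 2, and 274 to 1763 CPM in Ctrl). Of 5 tested erythroid markers Hba-a1, Hba-a2, Hbb-bs and Hbb-bt rose (384 to 557 CPM in KO, 51.0 to 81.6 CPM in Ctrl, the paralogs sharing reads), and of 3 tested platelet markers Pf4 rose (19.1 to 36.6 CPM in KO, 10.9 to 12.3 CPM in Ctrl). Hba-a1 and Hba-a2 had the same counts in every library, so 1 measurement enters the erythroid count and sums more than once. The part of these other cells in the results below was not tested. In such libraries, more or fewer cells of a type and more or less RNA per cell cannot be told apart.

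Of the 10 genes, 3 rose in KO (Acvrl1, Eng and Smad7, the last with its sign turned, at −0.15, once libraries were scaled to their endothelial markers) and 0 fell, where 5.85% of 16217 tested genes rose and 4.44% fell by edgeR's quasi-likelihood test. The log2 fold change was positive for 9 of the 10, with a median of 0.98, against 0.03 over all tested genes and 1.41 over the 15 endothelial markers. In 6 genes (Acvrl1, Eng, Smad6, Smad7, Id1 and Id2) every KO library lay above every Ctrl library, a pattern that 19% of tested genes showed. In the authors' deposited table, 6 of the 10 had an adjusted p below 0.05: Acvrl1, Eng, Smad6, Smad7, Id2 and Id3, all higher in KO, where 13.6% of the 16552 genes with an adjusted p in the authors' deposited table were higher.

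**Figure D1:**
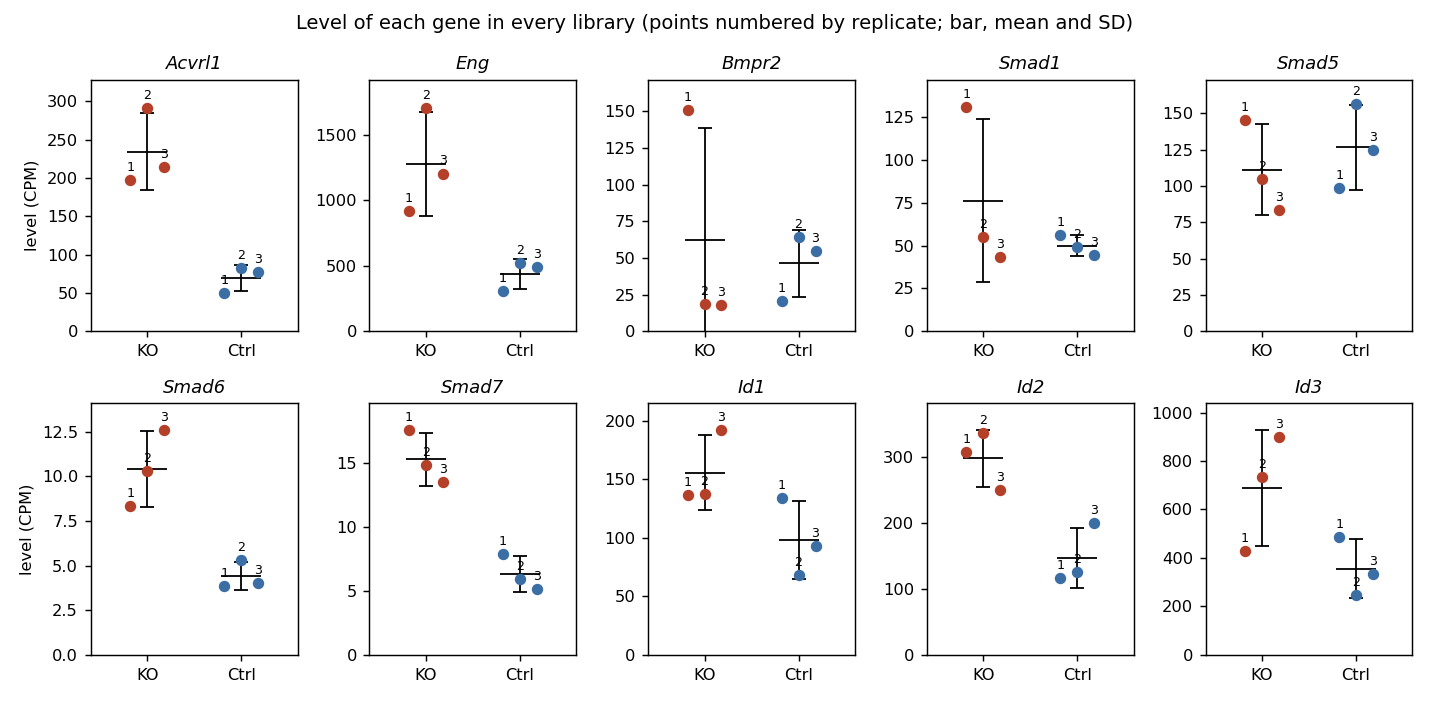
Level in CPM (vertical axis, from 0) of each of the 10 genes in the KO and Ctrl libraries, with points numbered by replicate and bars for the mean and SD (n = 3); the SD bar of Bmpr2 in KO is cut at 0. For Acvrl1, Eng, Smad6, Smad7, Id1 and Id2 every KO library lay above every Ctrl library in CPM, and KO 1 stood far above the other KO libraries for Bmpr2 (151 CPM against 18.3 and 17.7 CPM).

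Among the receptors, Acvrl1 and Eng rose and Bmpr2 did not pass the test. Acvrl1 (NM_001277255, chromosome 15, 101128522 to 101145336), the type I receptor ALK1, was at 197, 292 and 214 CPM in KO 1, 2 and 3, against 49.5, 81.9 and 76.9 CPM in Ctrl 1, 2 and 3. The lowest KO library was thus well above the highest Ctrl library. The mean was 234 ± 50.5 CPM in KO and 69.5 ± 17.4 CPM in Ctrl (SD, n = 3 each), a 3.37-fold difference with a log2 fold change of 1.75 (SE 0.293, edgeR's quasi-likelihood Benjamini-Hochberg adjusted p = 0.0221). Eng (NM_001146348, chromosome 2, 32646595 to 32682669) encodes endoglin, which presents BMP9 to ALK1. It was at 920.0, 1706 and 1203 CPM in KO 1, 2 and 3 and at 308, 519 and 487 CPM in Ctrl 1, 2 and 3. Its groups did not overlap either, and KO 2 and Ctrl 2 were the highest library of their group for both receptors. The mean of Eng was 1276 ± 398 CPM in KO and 438 ± 114 CPM in Ctrl (SD, n = 3 each), 2.91-fold apart, with a log2 fold change of 1.54 (SE 0.331, edgeR's quasi-likelihood Benjamini-Hochberg adjusted p = 0.0304). Eng overlaps Fpgs on the genome, whose entry held 4610 counts over the 6 libraries against 130456 for Eng; whether strand was used in counting is not given in the sources used here.

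Bmpr2 (NM_007561, chromosome 1, 59764279 to 59878081), the type II receptor that activates ALK1, was at 151, 18.3 and 17.7 CPM in KO 1, 2 and 3, against 20.5, 64.0 and 54.8 CPM in Ctrl 1, 2 and 3. KO 1 was the highest of the 6 libraries, while KO 2 and KO 3 were the lowest. The log2 fold change was 0.42 (SE 0.840, edgeR's quasi-likelihood Benjamini-Hochberg adjusted p = 0.767). Its sign rested on KO 1: without that library it was −1.30 (SE 0.457, edgeR's quasi-likelihood Benjamini-Hochberg adjusted p = 0.0667, range 0.0667 to 0.975 over 14 alternatives).

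The receptor-activated SMAD genes did not pass the test. Smad1 (chromosome 8) was at 131, 54.9 and 43.2 CPM in KO 1, 2 and 3, against 56.4, 49.3 and 44.4 CPM in Ctrl 1, 2 and 3. KO 1 again stood above all other libraries, and KO 2 and KO 3 lay within or just under the Ctrl range. The log2 fold change was 0.61 (SE 0.414, edgeR's quasi-likelihood Benjamini-Hochberg adjusted p = 0.354), and 0.04 without KO 1. Smad5 (chromosome 13), which transmits the same signal, was at 145, 105 and 83.5 CPM in KO 1, 2 and 3 and at 98.4, 157 and 125 CPM in Ctrl 1, 2 and 3. Its groups overlapped over most of their range, with a log2 fold change of −0.19 (SE 0.295, edgeR's quasi-likelihood Benjamini-Hochberg adjusted p = 0.700).

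The inhibitory SMAD genes had the fewest counts of the 10, and Smad7 rose while Smad6 did not pass the test. Smad7 (NM_001042660, chromosome 18), which brings ubiquitin ligases to activated receptors, was at 17.5, 14.8 and 13.5 CPM in KO 1, 2 and 3, against 7.86, 5.90 and 5.15 CPM in Ctrl 1, 2 and 3, from 79 to 447 counts per library. Every KO library exceeded every Ctrl library, and the mean was 15.3 ± 2.07 CPM in KO and 6.30 ± 1.40 CPM in Ctrl (SD, n = 3 each). The log2 fold change was 1.27 (SE 0.322, edgeR's quasi-likelihood Benjamini-Hochberg adjusted p = 0.0453). Smad6 (chromosome 9), which preferentially inhibits BMP receptors, was at 8.35, 10.3 and 12.6 CPM in KO 1, 2 and 3, against 3.86, 5.32 and 4.04 CPM in Ctrl 1, 2 and 3, from 62 to 367 counts. Its groups did not overlap either, but its log2 fold change of 1.24 (SE 0.347) missed the threshold (edgeR's quasi-likelihood Benjamini-Hochberg adjusted p = 0.0584).

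The ID genes, whose transcription is the usual readout of this pathway, had positive estimates that did not pass the test. Id1 (chromosome 2) was at 137, 138 and 193 CPM in KO 1, 2 and 3, against 134, 67.9 and 93.0 CPM in Ctrl 1, 2 and 3. Ctrl 1 came within a few CPM of KO 1 and KO 2. Its log2 fold change was 0.66 (SE 0.309, edgeR's quasi-likelihood Benjamini-Hochberg adjusted p = 0.187). Id2 (chromosome 12) was at 307, 336 and 251 CPM in KO 1, 2 and 3, against 117, 125 and 199.6 CPM in Ctrl 1, 2 and 3. Its groups did not overlap, with a mean of 298 ± 43.3 CPM in KO and 147 ± 45.5 CPM in Ctrl (SD, n = 3 each), and a log2 fold change of 1.02 (SE 0.286, edgeR's quasi-likelihood Benjamini-Hochberg adjusted p = 0.0589). Id3 (chromosome 4), which acts with Id1 in vessel growth, was at 429, 734 and 899 CPM in KO 1, 2 and 3, against 487, 246 and 335 CPM in Ctrl 1, 2 and 3. The groups overlapped because KO 1 was below Ctrl 1. Its log2 fold change of 0.95 (SE 0.366) gave edgeR's quasi-likelihood Benjamini-Hochberg adjusted p = 0.126, and without KO 1 it was 1.26 (adjusted p = 0.0210, range 0.0210 to 0.391 over 14 alternatives). The promoter of Id2 shown above held GGCGCC and that of Id3 the CAGAC pair, as Eng did.

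The calls on the 10 genes moved with the libraries used and with GC offsets. Of 14 alternatives, Acvrl1 passed in 8, Eng in 6 and Smad7 in 5. These alternatives are not independent: for Acvrl1, Eng and Smad7 the entry with the highest count sum held the same counts, and RLE factors changed the estimates little. With the replicate block and with equal endothelial markers none of these genes passed. With GC offsets within each library 2 of the 10 rose, where 5.87% of tested genes did: Acvrl1 was at 1.30 (edgeR's quasi-likelihood Benjamini-Hochberg adjusted p = 0.0331) and Id2 rose by 1.36 (adjusted p = 0.0259), while Eng at 1.01 (adjusted p = 0.0659) and Smad7 at 0.92 (adjusted p = 0.108) no longer passed. DESeq2 called 5 of the 10 higher in KO (Acvrl1, Eng, Smad6, Smad7 and Id2), where it called 12.4% of tested genes, and limma-voom 4 (Acvrl1, Eng, Smad7 and Id2), where it called 6.09%. Without KO 1, 6 of the 10 rose (Acvrl1, Eng, Smad6, Smad7, Id2 and Id3), where 15.2% of genes tested in that fit rose. Without Ctrl 1, Ctrl 2, Ctrl 3 or KO 2, 0 of the 10 and 0 of all tested genes passed by edgeR's quasi-likelihood test. At an unadjusted p below 0.05 the fit of all libraries had 6 of the 10, against 30.5% of tested genes. The 4 fits without those libraries had 7 of the 10 without Ctrl 1 (24.2% of tested genes), 5 without Ctrl 2 (20.5%), 5 without Ctrl 3 (20.8%) and 5 without KO 2 (21.6%). For the adjusted p, without KO 3, Acvrl1 was the 1 gene of the 10 to pass, where 3.02% of tested genes rose.

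The ratio of KO 1 to the other KO libraries changed with GC content. Over 8721 genes with a mean of at least 20 CPM and a GC value, the median log2 ratio of KO 1 to the mean of KO 2 and KO 3 was 1.13 for transcripts of at most 42% GC, 0.61 from 42% to 46%, 0.12 from 46% to 50%, −0.38 from 50% to 54% and −0.77 above 54%. In the same classes the median log2 fold change of KO over Ctrl was −0.57, −0.38, −0.17, 0.10 and 0.42. Of the 10 genes, Acvrl1 (56.6% GC), Eng (57.4%), Smad6 (60.8%), Smad7 (56.9%), Id1 (54.7%) and Id3 (55.6%), fall in the highest class, Smad1 (51.5%) in the one from 50% to 54%, Id2 (45.2%) and Smad5 (44.5%) in that from 42% to 46%, and Bmpr2 (41.0%) in the lowest. Bmpr2 was 8.37-fold higher in KO 1 than in the mean of KO 2 and KO 3, which placed it 12th of 8883 genes by that ratio, and 0.608% of these genes were at least 5-fold above both other KO libraries. Smad1 was 2.67-fold higher in KO 1 and Id2 1.05-fold. The part of base composition in these differences was not tested beyond the GC offsets.

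**Figure D2:**
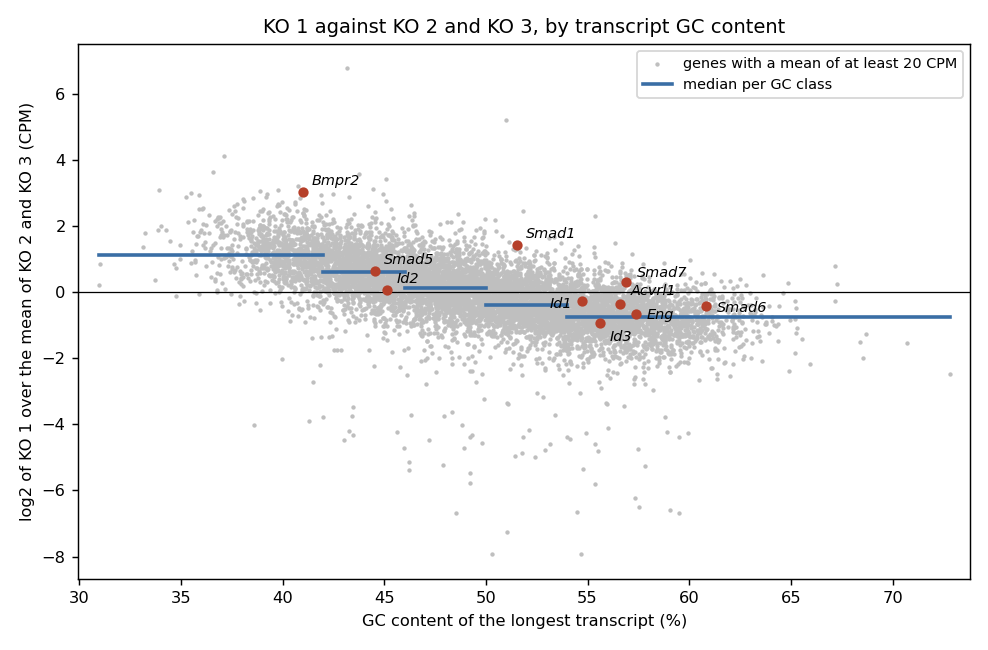
Log2 ratio of CPM in KO 1 to the mean of KO 2 and KO 3 (vertical axis, 0.5 CPM added to each) against GC content of the longest transcript in percent (horizontal axis), for genes with a mean of at least 20 CPM in grey and the 10 genes in red, of which Smad6 and Smad7 are below that mean. The blue median lines step down from 1.13 to −0.77 with GC content, and Bmpr2 lies at 3.03, above the median of its class.

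Set against the endothelial markers of the same library, 0 of the 10 genes had every KO library above every Ctrl library, a pattern of 1.42% of tested genes, and 1 had every KO library below. The mean of the markers was 8.23, 8.26 and 7.98 log2 CPM in KO 1, 2 and 3, against 6.40, 6.96 and 6.99 log2 CPM in Ctrl 1, 2 and 3, which is 1.37 higher in KO (exact permutation p = 0.1, two-sided, the smallest that 3 against 3 allows). Relative to that mean, Acvrl1 was at −0.31 ± 0.273 log2 units in KO and −0.70 ± 0.0831 in Ctrl (SD, n = 3 each), a difference of 0.39 (exact permutation p = 0.2). KO 1 and Ctrl 2 were both at −0.61, so the groups overlapped. Eng differed by 0.16, Smad7 by −0.08, Smad6 by −0.14, Id2 by −0.33, Id3 by −0.43, Id1 by −0.67, Smad1 by −0.93 and Bmpr2 by −1.56, with exact permutation p between 0.3 and 1.0 and overlapping groups. The sign of the smaller differences rested on single libraries: Eng was at −0.02 without KO 2, Smad7 at 0.28 without Ctrl 1, Smad6 at 0.05 without KO 1 and Id3 at 0.01 without Ctrl 1. Smad5 was the 1 gene whose groups did not overlap, at −1.05, −1.56 and −1.60 in KO 1, 2 and 3, against 0.22, 0.33 and −0.03 in Ctrl 1, 2 and 3 (difference −1.57, exact permutation p = 0.1). By this measure 65% of tested genes had every KO library below every Ctrl library, and the groups of single members came apart when a library was left out. Without KO 1, Acvrl1 and Eng had every KO library above and Bmpr2, Smad1 and Smad5 every KO library below. Without Ctrl 2, Acvrl1 was above and Smad5 and Id2 below, without Ctrl 1, Smad7 was above and Smad5 below, and without KO 3, Smad5 and Id1 were below. With the log2 of the summed marker CPM in place of the mean log2 CPM, Acvrl1 was above and Smad5 below. Shares over all tested genes were not taken for the splits without a library or with summed markers. Groups with fewer libraries come apart more easily, so those splits have no background here. When the libraries were instead given equal endothelial marker sums, the median over all genes was −1.35, 0 of the 10 rose and 1 fell: Smad5 at −1.53 (SE 0.353, edgeR's quasi-likelihood Benjamini-Hochberg adjusted p = 0.00461), where 54.8% of tested genes fell and 0.413% rose. On that scale Acvrl1 stood at 0.41 and Eng at 0.19, and Smad7, Smad6, Id1, Id2, Id3, Smad1 and Bmpr2 at −0.15, −0.11, −0.75, −0.34, −0.48, −0.79 and −0.84.

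**Figure D3:**
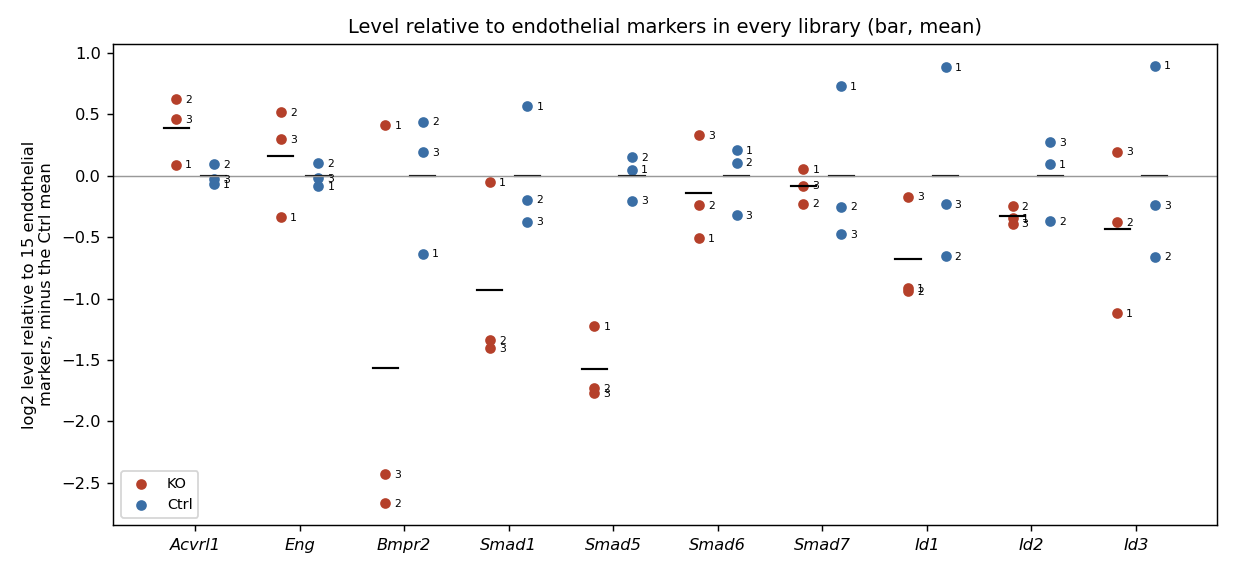
Log2 CPM of each gene minus the mean log2 CPM of 15 endothelial markers in the same library, shown as the difference from the gene's Ctrl mean (vertical axis), with KO points left of Ctrl points, numbered by replicate, and bars for the mean. Groups overlap for 9 genes, while Smad5 is lower in all KO libraries, by 1.57 on average, a pattern of 65% of tested genes.

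The order of levels among the 10 genes, per kilobase of exonic length, was nearly the same in both groups. In KO it ran from Id3 at 384 ± 133 CPM per kb and Eng at 315 ± 98.4, whose ranges overlap, to Id1 at 134 ± 27.7 and Id2 at 122 ± 17.7, which overlap too (SD, n = 3). Acvrl1 followed at 54.9 ± 11.8 CPM per kb, apart from its neighbours on both sides. Smad5 at 14.98 ± 4.23 and Smad1 at 12.2 ± 7.62 overlapped, as did Smad1 and Bmpr2, and again Bmpr2 at 3.46 ± 4.26, Smad7 at 3.38 ± 0.457 and Smad6 at 3.25 ± 0.661 CPM per kb. In Ctrl, Id3 was at 199 ± 68.2, Eng at 108 ± 28.1, Id1 at 84.7 ± 28.6, Id2 at 60.4 ± 18.7, Smad5 at 17.1 ± 3.92, Acvrl1 at 16.3 ± 4.08, Smad1 at 7.99 ± 0.962, Bmpr2 at 2.58 ± 1.27, Smad7 at 1.39 ± 0.310 and Smad6 at 1.38 ± 0.249 CPM per kb. The neighbours that changed place were Acvrl1 and Smad5, whose ranges overlap in Ctrl and lie apart in KO. These levels rest on exonic length. The deposited length is instead close to the genomic span: 113802 bases for Bmpr2, with 17983 exonic, and 68983 for Smad6, with 3205 exonic. Whether intron reads were counted is not given in the sources used here, and the order could differ if they were.

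Of 49 other BMP pathway genes, 45 were tested, and 4 rose and 0 fell, where 10.3% of all tested genes changed in either direction by edgeR's quasi-likelihood test. Their median log2 fold change was 0.59, against 0.03 over all tested genes and 1.41 over the 15 endothelial markers. Without KO 1, 8 rose and 7 fell, where 15.2% of tested genes rose and 14.5% fell. Without Ctrl 1, Ctrl 2, Ctrl 3 or KO 2, 0 passed by edgeR's quasi-likelihood test, with 14, 17, 18 and 18 at an unadjusted p below 0.05, where 24.2%, 20.5%, 20.8% and 21.6% of tested genes were. The ligands had 0 of 6 tested past the threshold by edgeR's quasi-likelihood test, with Bmp2 and Bmp4 at an unadjusted p below 0.05. Bmp4 was at 5.55 ± 1.62 CPM in KO and 1.33 ± 0.657 CPM in Ctrl (SD, n = 3 each), a log2 fold change of 2.08 (edgeR's quasi-likelihood Benjamini-Hochberg adjusted p = 0.0501). Bmp2 was at 1.64 and Bmp6 at −0.39. Gdf2, which encodes BMP9 and is made mainly in liver, held at most 3 counts in a library, and Bmp10 was not among the symbols of the table.

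The other receptors had 0 of 8 past the threshold. The type I receptor Bmpr1a had a log2 fold change of −1.30 (9.91 ± 5.11 CPM in KO, 24.5 ± 3.66 CPM in Ctrl, SD, n = 3 each), and Tgfbr2, the TGF-beta type II receptor, one of 1.26. Of 9 other SMADs and partners, Zfp423, a zinc finger partner of SMADs in BMP signalling, rose by 1.197 (45.9 ± 12.8 CPM in KO, 20.0 ± 3.20 CPM in Ctrl, SD, n = 3 each, edgeR's quasi-likelihood Benjamini-Hochberg adjusted p = 0.0460), and was at −0.18 with libraries scaled to their endothelial markers. Smad4, the shared partner of the pathway, was at 0.32. Its levels were 83.5, 24.9 and 26.8 CPM in KO 1, 2 and 3, against 32.1, 43.0 and 33.4 CPM in Ctrl 1, 2 and 3. KO 1 was thus the highest library, while KO 2 and KO 3 lay below every Ctrl library. Smad9, another BMP-responsive SMAD, was at 1.87 ± 1.68 CPM in KO and 0.129 ± 0.139 CPM in Ctrl, from as few as 1 count in a library, and did not pass. Of 7 tested extracellular modulators, Fst, which encodes the activin and BMP antagonist follistatin, rose by 2.27 (9.62 ± 2.42 CPM in KO, 2.01 ± 1.17 CPM in Ctrl, SD, n = 3 each, edgeR's quasi-likelihood Benjamini-Hochberg adjusted p = 0.0413). Bmper, a modulator made by endothelium, was at 0.74.

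Among 7 other genes induced by BMP9 or ALK1 in endothelium, Gja4, a gap junction gene of arteries, rose by 2.12 (113 ± 20.1 CPM in KO, 25.9 ± 10.8 CPM in Ctrl, SD, n = 3 each, edgeR's quasi-likelihood Benjamini-Hochberg adjusted p = 0.0228). The ALK1 targets Tmem100 (1.48), Atoh8 (1.64) and Id4 (1.75), and Hey1 (0.50), Hey2 (−0.53) and Efnb2 (1.44), did not pass. The list's median was 1.48, against 1.41 over the 15 endothelial markers. KO 1 stood well above KO 2 and KO 3 for Efnb2 (90.6 CPM against 22.2 and 16.8 CPM) and Id4 (58.3 CPM against 25.6 and 15.5 CPM). Of 5 genes that are higher after ALK1 loss in the mouse retina, Dll4, the Notch ligand of tip cells, rose by 1.61 (edgeR's quasi-likelihood Benjamini-Hochberg adjusted p = 0.0212). This list's median was 1.25, below that of the endothelial markers, with Apln at 0.88, Cxcr4 at 1.25, Angpt2 at 0.89 and Esm1 at 1.36. For Esm1, KO 1 was at 109.5 CPM, against 34.3 and 29.1 CPM in KO 2 and KO 3. The E protein genes Tcf3 (0.94), Tcf4 (0.52) and Tcf12 (−0.68), whose products ID proteins bind, had 0 of 3 past the threshold. With libraries scaled to their endothelial markers, Dll4 was at 0.23, Gja4 at 0.84 and Fst at 1.02, and none of them passed (edgeR's quasi-likelihood Benjamini-Hochberg adjusted p = 0.553, 0.0733 and 0.135). Named genes of these lists that did not pass were chosen after their values were seen.

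**Figure D4:**
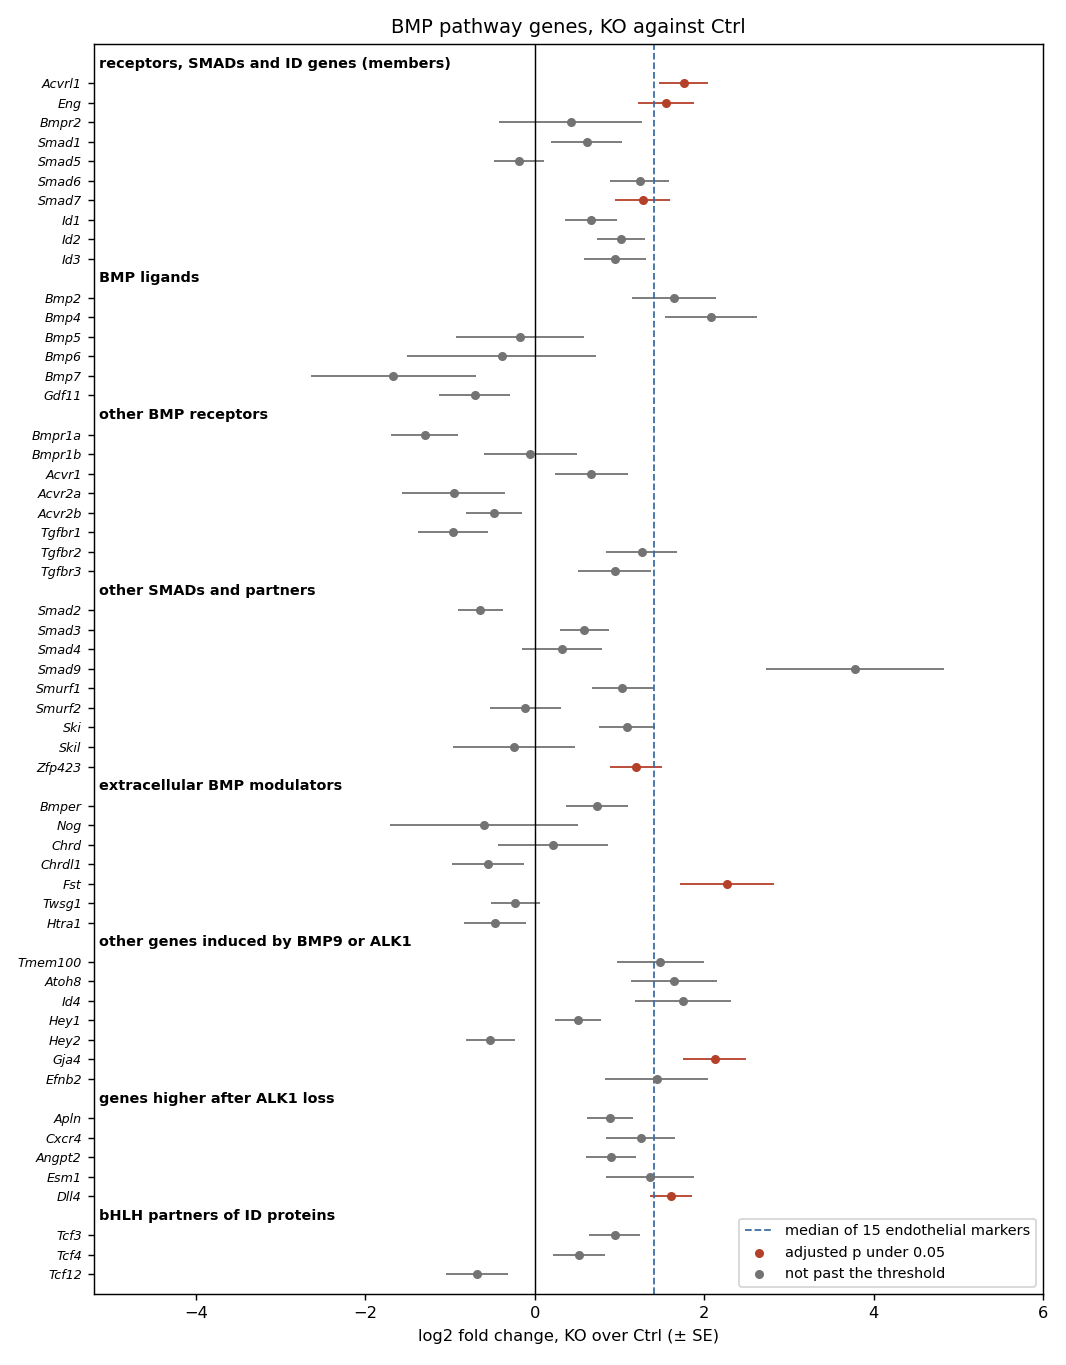
Difference of KO from Ctrl as a log2 fold change, with SE bars (horizontal axis), for the 10 genes and 45 other tested genes of the BMP pathway by list (vertical axis), in red where the adjusted p was under 0.05 and grey otherwise. The dashed line marks the median of 15 endothelial markers at 1.41; the 7 red points are Acvrl1, Eng, Smad7, Zfp423, Fst, Gja4 and Dll4.

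The genes whose pattern over the 6 libraries was most like that of Acvrl1, by the smallest root-mean-square difference of centred log2 CPM among 8883 genes, were Prkd2, Serpinh1, Mxra8, Bok and Tns1, at 0.0949, 0.121, 0.121, 0.133 and 0.137 log2 units. Their log2 fold changes were 1.62, 1.84, 1.59, 1.51 and 1.67, and all 5 rose. The measure spans KO and Ctrl libraries, so fold changes and calls like those of Acvrl1 follow from the choice. The same holds for Id1 below. Serpinh1 encodes a collagen chaperone and Tns1 a focal adhesion protein. Eng came 14th in that order (0.152), Id2 619th and Id3 1756th. Those most like Id1 were Mrpl53, Snrpc, Gadd45a, Ptms and Srf, at 0.0940, 0.0948, 0.117, 0.122 and 0.127 log2 units, none of which passed the test (log2 fold changes of 0.59, 0.74, 0.59, 0.84 and 0.78). Id3 came 225th in the order of Id1 (0.260), Id2 2616th and Acvrl1 5702nd.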

How the data were processed

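Polyadenylated RNA of CD31-sorted retinal cells was amplified as full-length cDNA from low input and read as single ends, per the labels' protocols. Tools listed in the submitters' processing notes, without roles, are STAR, Trimmomatic 0.36, deepTools, edgeR and DESeq2, with the build mm10; how reads were counted (tool, strand, introns) is not given in the sources used here. Per transcript, the deposited table holds, per the file headers, raw counts for 34035 transcript entries. The authors also gave a normalized signal (counts divided by 1 size factor per library), RPKM values, and, from DESeq2, log2 fold changes with SE, a Wald score, p-values and adjusted p-values, all per the file headers. The deposited RPKM and score were not used. A Ctrl count column without a matching replicate number was taken as Ctrl 3 because it equals that library's deposited normalized column times 1 constant. The number of per-sample columns that could not be assigned to a sample was 0.

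For each of 19124 symbols the entry with the longest deposited length was used. edgeR 4.0.16 (R 4.3.3) gave the quasi-likelihood test with TMM, filterByExpr, no covariate and a threshold of 0.05 on p adjusted by Benjamini-Hochberg over 16217 genes. SE is the log2 fold change over the square root of F. DESeq2 1.42.0 and limma 3.58.1 (voom) were alternatives, with RLE factors, no filter, scaling to equal endothelial markers, GC offsets (loess per library, 15803 genes with a GC value), the entry with the highest count sum, a replicate block and each library left out. The fits were also run on simulated counts with 200 changed genes. Those counts held no GC trend, outlying library or shift in cell types, so they do not check the fits against these. Exonic length and GC content came from GENCODE M21, coordinates and promoters from RefSeq GRCm38.p6, which is the assembly of mm10. Python 3.11.15, scipy 1.17.1 and matplotlib 3.10.9 made summaries and plots. The SDs cover 3 pups per group. The rule for named genes took the 10 genes, up to 4 genes past the threshold of each other list (smallest adjusted p), the 5 nearest genes of Acvrl1 and of Id1, and Rnf20. The members and lists were chosen with earlier results of these data known.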

Additional observations from a re-analysis of the deposited data

How the results depend on the processing

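Of the 10 genes 3 passed in all 6 libraries (6 at an unadjusted p below 0.05), and leaving out 1 library gave 0 to 6. Over all genes 1668 passed, and leaving out 1 library gave 0 to 4927; over the other pathway genes 4 passed, against 0 to 15. Such fits have fewer libraries, and where 0 genes passed, 3434 to 4005 had an unadjusted p below 0.05. DESeq2 called 5 of the 10 genes, 3536 of all genes and 19 other pathway genes. Scaling to equal endothelial markers called 1, 8949 (67 higher, 8882 lower, against 948 and 720) and 14. Those 14 were all lower, where 54.8% of tested genes fell. GC offsets called 10 other pathway genes, all higher, where 5.87% of tested genes rose. Equal replicate numbers showed no pairing of the libraries (correlation of deviations −0.32, 0.07 and −0.23, against −0.28 to 0.36 for unequal numbers). So few libraries cannot exclude a pairing. With the replicate block 0 of the 10 genes, 1 of all genes and 0 other pathway genes passed. Relative to endothelial markers, 1 member had every KO library below every Ctrl library (1 to 3 without a library), a pattern of 65% of tested genes. On that measure 0 had every KO library above (0 to 2 without a library, and 1 with the summed markers), a pattern of 1.42% of tested genes. The shares over all genes were not taken for the splits without a library or with summed markers.

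Signs turned as follows, and the cause was not tested. Leaving out 1 library gave −1.30 to 0.87 for Bmpr2 and −0.36 to 0.021 for Smad5. Bmpr2 was −0.16 with limma-voom, −0.84 with equal endothelial markers, −0.45 with the replicate block and −1.30 without KO 1. Smad5 was 0.15 with GC offsets and 0.021 without KO 3. With equal endothelial markers, Smad1 was −0.79, Smad6 −0.11, Smad7 −0.15, Id1 −0.75, Id2 −0.34, Id3 −0.48, Zfp423 −0.18, Glul −0.061, Mrpl53 −0.84, Snrpc −0.66, Gadd45a −0.80, Ptms −0.58 and Srf −0.63. Of the 10 genes, Smad6 and Smad7 had the fewest counts, as few as 62 and 79 in a library; Hbb-bt, Fst, Des and Pax2 had as few as 12, 22, 26 and 29.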

Other observations

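Ratios between members were looked at after their values were seen and have no test. Eng over Acvrl1, in CPM, was 4.67, 5.85 and 5.62 in KO 1, 2 and 3, against 6.21, 6.34 and 6.34 in Ctrl 1, 2 and 3, so that each KO library was below each Ctrl library. Id3 over Id1 was 3.14, 5.34 and 4.67 in KO 1, 2 and 3, against 3.64, 3.62 and 3.60 in Ctrl 1, 2 and 3. The KO libraries lay on both sides of the Ctrl libraries, among which Id1 varied between 67.9 and 134 CPM. Smad5 over Smad1 (1.11, 1.91 and 1.94 in KO, 1.75, 3.18 and 2.81 in Ctrl) and Smad7 over Smad6 (2.10, 1.43 and 1.07 in KO, 2.04, 1.11 and 1.27 in Ctrl) overlapped between the groups.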
